A study of Mus musculus with 26 samples.

Results

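Antibody heavy-chain clonotypes of the mouse spleen were compared by their abundance: expanded clonotypes, present in both technical tables of a spleen with 100 or more copies in total, against clonotypes seen as a single copy. A clonotype was a V gene, a J gene and a junction nucleotide sequence, the junction being the CDR3 with its flanking conserved cysteine and tryptophan codons. Of 993128 spleen clonotypes (1674869 in all tissues), 2146 were expanded and 828156 were single-copy. Spleens 1, 2, 3 and 4 held 125, 1201, 300 and 520 expanded clonotypes, and 10973, 385520, 180758 and 250905 single-copy clonotypes. The members were chosen by their copies and by presence in both tables, so their abundance is a description and not a result. All spleens came from mice of wild-type genotype that had been associated with S. epidermidis, a skin commensal bacterium, and no group without the association was analysed here. The labels give no age, strain or sex, and name the cells as B cells without a sort. The title of each of the 8 spleen libraries gave the tissue, since the tissue field of every library reads ear skin. Lymph node and skin of the same treatment, with 4 replicates each, served only for comparison.

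B cells assemble an antibody heavy chain from V, D and J segments, whose joint is the CDR3, the part that most often decides what the antibody binds. A naive B cell carries IgM and IgD with a germline V segment. After activation it can switch to IgG, IgE or IgA and can acquire somatic mutations in germinal centres, while antibody-secreting plasma cells hold far more immunoglobulin RNA than resting B cells. In bulk RNA, many cells of a clone and much RNA per cell cannot be told apart, so a copy number here is an abundance of transcripts and not a count of cells. B-1 cells are an innate-like lineage that makes natural IgM, and part of their receptors recur between mice in germline form.

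The largest expanded clonotype of each spleen is shown first, with the CDR3 in capitals inside the junction, because these sequences carry the most copies among the members.
Spleen 1, IGHV1-26 with IGHJ3, 7897 copies: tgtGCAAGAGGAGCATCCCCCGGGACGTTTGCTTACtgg
Spleen 2, IGHV3-6 with IGHJ1, 15626 copies: tgtGCTGACTATGGTAACCTCGATGTCtgg
Spleen 3, IGHV1-76 with IGHJ1, 6843 copies: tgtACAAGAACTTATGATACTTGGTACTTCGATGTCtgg
Spleen 4, IGHV1-26 with IGHJ2, 8853 copies: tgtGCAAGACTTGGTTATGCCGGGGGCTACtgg
They made up 4.87%, 1.15%, 1.5% and 1.27% of the copies of their spleens. The first was listed mainly as IGHG2 in one technical table (4718 copies) and mainly as IGHA in the other (3179 copies), and the remaining ones as IGHA in both. The spleen 3 clonotype had a close relative as the third largest of that spleen, IGHV1-76 with IGHJ1 and the CDR3 ARTYDTWYFDV at 2792 copies, whose V segment had 6 mismatches against 2 in the larger one.

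The clonotypes expanded in most spleens are shown next. These repeat between spleens with identical V and J genes and an identical CDR3 peptide.
IGHV7-1 with IGHJ1, CDR3 ARDYYGSSYWYFDV, 4 spleens: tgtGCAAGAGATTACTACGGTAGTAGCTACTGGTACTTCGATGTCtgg
IGHV11-2 with IGHJ1, CDR3 MRYSNYWYFDV, 3 spleens: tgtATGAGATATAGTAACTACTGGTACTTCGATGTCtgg
IGHV11-2 with IGHJ1, CDR3 MRYGNYWYFDV, 3 spleens: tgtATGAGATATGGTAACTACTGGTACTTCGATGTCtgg
In these lines the capitals again mark the CDR3. The other recurrent receptors had more than 1 junction, and in the following lines the capitals mark the base that differs from the most abundant junction of the same CDR3.
IGHV9-3 with IGHJ1, CDR3 ARDSNWYFDV, spleens 2, 3 and 4: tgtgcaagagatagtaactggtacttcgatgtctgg
IGHV9-3 with IGHJ1, a further junction of spleen 4: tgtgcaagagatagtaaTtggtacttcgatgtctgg
IGHV9-3 with IGHJ1, a further junction of spleen 3: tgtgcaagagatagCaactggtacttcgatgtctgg
IGHV1-76 with IGHJ2, CDR3 ARRGDGYYFDY, spleen 4: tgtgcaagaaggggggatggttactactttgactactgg
IGHV1-76 with IGHJ2, spleen 2: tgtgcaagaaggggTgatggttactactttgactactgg
IGHV1-76 with IGHJ2, spleen 3: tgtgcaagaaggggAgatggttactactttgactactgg
The IGHV7-1 junction was the same nucleotide sequence in all 4 spleens, with 203, 14742, 1411 and 1884 copies in spleens 1 to 4 and 0 V mismatches in each. This is the heavy chain of the T15 idiotype, the classic natural antibody against phosphocholine of bacterial cell walls. Only heavy chains were sequenced, so binding by these clonotypes was not tested. Its main isotype was IGHM in both technical tables of spleens 1, 2 and 3, while the spleen 4 tables gave IGHA (938 copies) and IGHM (946 copies). The IGHV11-2 receptors are known from B-1a cells that bind phosphatidylcholine, and their 6 expanded clonotypes shown above also had 0 V mismatches. MRYSNYWYFDV had 4146, 248 and 228 copies in spleens 2, 3 and 4, and all clonotypes with that V, J and CDR3 together had 70 copies in spleen 1. All 4146 copies of spleen 2 were listed as IGHA, and those of spleens 3 and 4 as IGHM. MRYGNYWYFDV had 1268, 1465 and 234 copies in spleens 2, 3 and 4, against 6 copies in all in spleen 1. In spleen 2 it was listed as IGHA for 654 copies and as IGHM for 614, and in spleens 3 and 4 as IGHM. The main IGHV9-3 junction was identical in spleens 2, 3 and 4, with 1460, 334 and 439 copies. The IGHV1-76 receptor differed in its nucleotides in each spleen, and its V segment had 2, 2 and 4 mismatches in spleens 4, 2 and 3.

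The copies summed to 162168, 1362176, 457138 and 694744 in spleens 1 to 4, so that 100 copies stood for 0.0617%, 0.00734%, 0.0219% and 0.0144% of a spleen. Expanded clonotypes were 0.487%, 0.274%, 0.134% and 0.171% of clonotypes and 27.3%, 46.8%, 25.8% and 32.5% of copies. Their copies in the 2 technical tables lay within 2-fold of each other for 82.4%, 98.9%, 100% and 99.6% of them. Spleen 1 stood apart from the others in its low depth and looser technical agreement. Of its 1984 clonotypes with 2 copies, 33 had 1 in each table, against 2949 of 30431 in spleen 3, and IGHD made up 38.5% of its clonotypes of 10 to 99 copies against at most 0.0291% in the others. Results that rest on it are given with and without it. Almost every distinct sequence carried a single constant gene within a table: the exceptions were 0 to 16 sequences per table, of 17179 to 284017. The 2 tables of a spleen nonetheless gave different main isotypes for 12.0%, 19.7%, 10.0% and 9.04% of expanded clonotypes, which together held 26%, 22.6%, 13.9% and 10.5% of the expanded copies. These were less mutated (0.793%, 1.44%, 1.58% and 2.08% V mismatches) than expanded clonotypes on which the tables agreed (2.94%, 2.06%, 2.82% and 2.63%). An isotype below is the constant gene with most copies over both tables. The restriction to clonotypes with the same main isotype in both tables turned the sign of the IGHG3 and IGHJ1 differences and of no other isotype, mutation or J gene difference.

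Expanded clonotypes were mostly IgA, while single-copy clonotypes were mostly IgM and IgD. IGHA was the main isotype of 68.0%, 47.5%, 72.0% and 69.2% of expanded clonotypes in spleens 1 to 4, against 16.6%, 5.87%, 4.12% and 4.54% of single-copy clonotypes. The values of the classes did not overlap, with means of 64.2% ± 11.3 and 7.78% ± 5.92 (SD, n = 4). IgA is the antibody of mucosal surfaces, and its constant gene is the last of the heavy-chain locus (Igha, mm10, chr12:113256204-113260236). IGHM, the constant gene of IgM (Ighm, chr12:113418826-113422730), took 11.2%, 36.3%, 24.3% and 21.9% of expanded clonotypes against 52.5%, 74.0%, 82.2% and 77.5% of single-copy clonotypes. Spleen 2 had the lowest IgA and the highest IgM share among expanded clonotypes.

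IGHD, the constant gene of IgD, was the main isotype of 0 of 2146 expanded clonotypes, which allows a share of up to 0.140%, a limit that covers counting error only. It was the main isotype of 16.6% ± 3.24 (SD, n = 4) of single-copy clonotypes, with 12.8% to 20.7% per spleen. Some IGHD copies were present in 1, 72, 2 and 5 of the expanded clonotypes of spleens 1 to 4. IGHG2, which joins the IgG2 subclasses, took 12.8%, 15.3%, 3.67% and 8.27% of expanded against 5.14%, 3.12%, 0.632% and 0.864% of single-copy clonotypes, higher in each of the 4 spleens although the ranges of the classes overlapped. IGHG3 averaged 0.552% against 0.428%, and 0.235% against 0.428% with the same main isotype in both tables. IGHG1 and IGHE rested on spleen 1, where they took 4% and 3.20% of expanded clonotypes (5 and 4 clonotypes), against at most 0.0833% and 0% in the other spleens. Each exact two-sided sign-flip test over the 4 spleens gave p = 0.125 for IGHA, IGHM, IGHD and IGHG2, the smallest p this design allows, and an adjusted p of 0.219 over the 7 isotypes, so none passed the threshold of 0.05. With the same main isotype in both tables, the difference in IGHA was 58.6 percentage points against 56.4 in all expanded clonotypes, that in IGHM -49 against -48.1, and that in IGHG2 6.58 against 7.58.

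**Figure D1:**
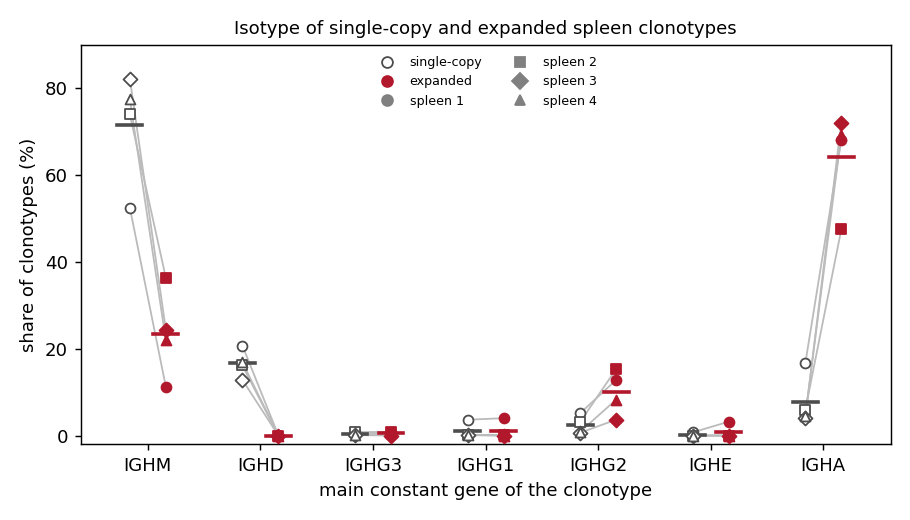
Share of clonotypes (%) by main constant gene in the 4 spleens, open markers for single-copy and filled markers for expanded clonotypes, with a grey line joining the classes of 1 spleen and a bar at the mean. In IGHA the expanded values of 47.5% to 72.0% lie above all single-copy values, and IGHD has no expanded clonotype.

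The V segments of expanded clonotypes carried more mismatches on average, while within IgM and within IgA the classes lay closer together. V mutation is the share of aligned V bases that differ from the germline gene in the most abundant sequence of a clonotype. It was 2.68%, 1.94%, 2.70% and 2.58% in expanded against 1.76%, 0.859%, 0.715% and 0.706% in single-copy clonotypes of spleens 1 to 4, with means of 2.47% ± 0.361 and 1.01% ± 0.506 (SD, n = 4). The classes did not overlap (exact sign-flip test, two-sided p = 0.125, the smallest possible). Within IgA the means were 3.52% ± 0.173 against 3.37% ± 0.257, higher in 3 of 4 spleens (exact sign-flip p = 0.375, adjusted 0.625 over IgM and IgA). This small difference, 0.145 percentage points, turned to -0.102 with a threshold of 50 copies and to -0.642 for lineages. Within IgM they were 0.561% ± 0.162 against 0.754% ± 0.326, a difference of -0.193 percentage points that became 0.0200 without spleen 1 (exact sign-flip p = 0.625, adjusted 0.625). Single-copy IgM clonotypes of spleen 1 had 1.23% mismatches, against 0.538% to 0.683% in the other spleens.

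Within IgG2 the order was the other way: expanded IgG2 clonotypes were nearly germline. Their V mutation was 0.217%, 0.497%, 0.0649% and 0.616% in spleens 1 to 4, against 1.86%, 2.02%, 2.18% and 2.18% in single-copy IgG2 clonotypes. The difference of -1.71 percentage points ± 0.274 (SD, n = 4) had the same sign in all 4 spleens, without overlap (exact sign-flip p = 0.125). The technical tables gave different main isotypes for 18.8%, 33.2%, 9.09% and 14% of these expanded IgG2 clonotypes, and with the same main isotype in both the difference was -1.67. The numbers behind it were 16, 184, 11 and 43 expanded IgG2 clonotypes, of which 15, 137, 10 and 26 had 0 V mismatches. Over the 4 spleens, 969 of the 1210 expanded clonotypes with V mismatches were IgA. This comparison within IgG2 was added after the values were seen.

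Clonotypes with 0 V mismatches made up 43.2%, 50.5%, 32.7% and 34.0% of expanded and 37.6%, 63.9%, 65.6% and 65.7% of single-copy clonotypes, so spleen 1 went against the other 3. Within IgM the share was 74.5% ± 2.8 against 62.8% ± 11 (SD, n = 4), higher in 4 of 4 spleens. The IgM difference of 11.7 percentage points was 4.81 without spleen 1, and turned to -2.25 at equal depth and to -15.8 against clonotypes with 1 copy in each table. Of the mismatches present, a larger part changed the amino acid in expanded clonotypes: replacements were 75.7% ± 2.60 of mismatches against 67.9% ± 1.02 (SD, n = 4), without overlap and higher in 4 of 4 spleens. The same held within IgM (77.7% against 66.5%) and, with overlapping ranges, within IgA (75.4% against 71.0%); these splits were also added after the values were seen, each with exact sign-flip p = 0.125. The mutation result over all isotypes depended on the sequence that stands for a clonotype. With the sequence of fewest mismatches in place of the most abundant one, the difference was -0.0306 percentage points, where expanded clonotypes held a median of 7 to 20 distinct sequences and a single-copy clonotype holds 1. Counting lineages in place of clonotypes gave 0.481 percentage points.

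**Figure D2:**
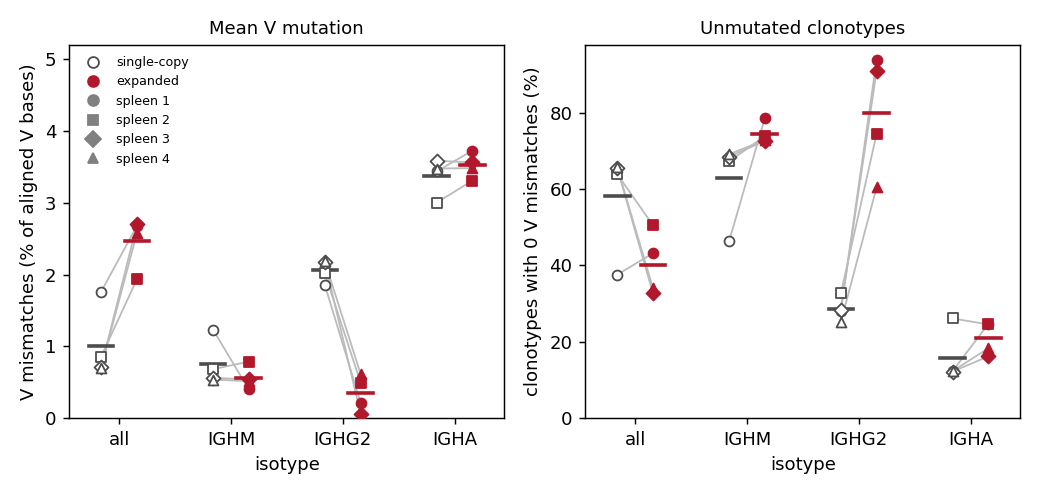
Left, mean V mismatches (% of aligned V bases); right, clonotypes with 0 V mismatches (%), for all isotypes and within IGHM, IGHG2 and IGHA, with symbols as in the plot of isotypes. Expanded IGHG2 clonotypes lie at or below 0.616% mismatches in every spleen, and single-copy IGHG2 clonotypes between 1.86% and 2.18%.

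Between the classes, isotype and mutation did not follow copies evenly. IGHA took 7.78% ± 5.92, 8.30% ± 2.70, 33.5% ± 13.6 and 64.2% ± 11.3 (SD, n = 4) of clonotypes with 1, 2 to 9, 10 to 99 and, in both tables, 100 or more copies. V mutation was 1.01%, 0.431%, 1.12% and 2.47% over the same classes, so the lowest value was that of clonotypes with 2 to 9 copies in each of the 4 spleens. Within IgM it was 0.754%, 0.177%, 0.223% and 0.561%. Within IgG2 it went down throughout, from 2.06% over 1.38% and 0.767% to 0.349%. Of the single-copy clonotypes, 4.38%, 2.26%, 1.03% and 1.39% lay 1 junction nucleotide from an expanded clonotype of the same V and J gene, and 50.5% to 77.1% of these were IgA. Without them and those sharing a junction with an expanded clonotype of another V call, the IGHA difference was 58.2 and the mutation difference 1.54 percentage points. On either side of the threshold, clonotypes of 80 to 99 copies in both tables were 66.7%, 40.2%, 64.1% and 55.9% IgA and those of 100 to 124 copies 63.0%, 41.0%, 69.2% and 62.3%.

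**Figure D3:**
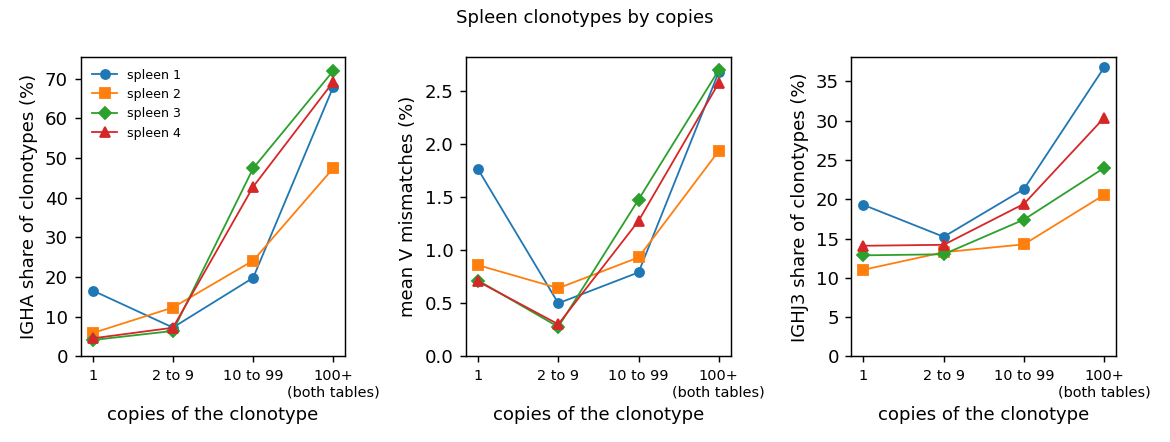
IGHA share (%), mean V mismatches (%) and IGHJ3 share (%) of spleen clonotypes by copies, 1 line for each spleen. IGHA stays at or below 16.6% up to 9 copies and reaches 47.5% to 72.0% in the expanded class, and mismatches are lowest at 2 to 9 copies.

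The number of distinct sequences in an expanded clonotype varied from 1 to 288. Of the 147 expanded clonotypes with 1 or 2 distinct sequences, 100 came from spleen 2. Their median was 139, 887, 1411 and 849 copies in spleens 1 to 4, against 253, 184, 183 and 185 copies in clonotypes with 10 or more, so spleen 1 went against the others. In spleens 1 to 4, 71.4%, 81%, 53.8% and 55% of the former and 20%, 47.3%, 28.2% and 32.6% of the latter had 0 V mismatches. IgA made up 28.6%, 29%, 30.8% and 70% of the former and 86.7%, 49.5%, 77.3% and 69.3% of the latter, so that spleen 4 showed nearly equal shares. In spleen 2 the 3 largest clonotypes each consisted of 1 distinct sequence with 0 mismatches: ADYGNLDV (15626 copies), TGECNY (15304 copies, of which 7561 were listed as IGHA in one table and 7743 as IGHM in the other) and ARDYYGSSYWYFDV (14742 copies). Restricted to expanded clonotypes with over 2 distinct sequences, the differences were 58.5 percentage points in IGHA and 1.57 in V mutation.

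IGHJ3 shares were higher and IGHJ4 shares lower among expanded clonotypes in all 4 spleens. The J segments (IGHJ3 at chr12:113429085-113429132 and IGHJ4 at chr12:113428514-113428567, mm10) encode the end of the CDR3. IGHJ3 was used by 36.8%, 20.6%, 24% and 30.4% of expanded against 19.3%, 11%, 12.9% and 14.1% of single-copy clonotypes, without overlap and with means of 27.9% ± 7.17 and 14.3% ± 3.54 (SD, n = 4). IGHJ4 was used by 16.8%, 28.1%, 27.3% and 16.2% of expanded and 28.0%, 35.4%, 32.7% and 31.6% of single-copy clonotypes. IGHJ1 averaged 21.7% against 20.8% and IGHJ2 28.2% against 33.0%. IGHJ3 and IGHJ4 had exact sign-flip p = 0.125 and an adjusted p of 0.250 over the 4 J genes.

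The IGHJ3 difference had opposite signs in IgM and IgA. Among expanded IgM clonotypes IGHJ3 was rare, at 0%, 5.05%, 6.85% and 7.89% in spleens 1 to 4, against 12.5%, 9.69%, 11.9% and 12.6% of single-copy IgM clonotypes, without overlap. The expanded value of spleen 1 rests on 14 IgM clonotypes; without that spleen the mean difference was -4.78 percentage points against -6.72 with it. IGHJ1 was instead higher in expanded IgM in 4 of 4 spleens (30.7% ± 9.24 against 20.3% ± 0.458, SD, n = 4), as was IGHJ2 (41.8% ± 1.65 against 35.7% ± 0.344, SD, n = 4). Within IgA, IGHJ3 was used by 42.4%, 30.2%, 29.6% and 38.1% of expanded and 35.9%, 23.4%, 25% and 32.6% of single-copy clonotypes, a difference of 5.84 ± 0.961 percentage points (SD, n = 4). The difference between the IgA and the IgM effect was not tested. IGHJ3 was used by 29.2% of single-copy IgA and 11.7% of single-copy IgM clonotypes. Each of these comparisons within an isotype was added after the values were seen and had exact sign-flip p = 0.125, adjusted 0.214. Counted as lineages, the IgA difference was 0.877 percentage points and the difference over all isotypes 7.07.

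**Figure D4:**
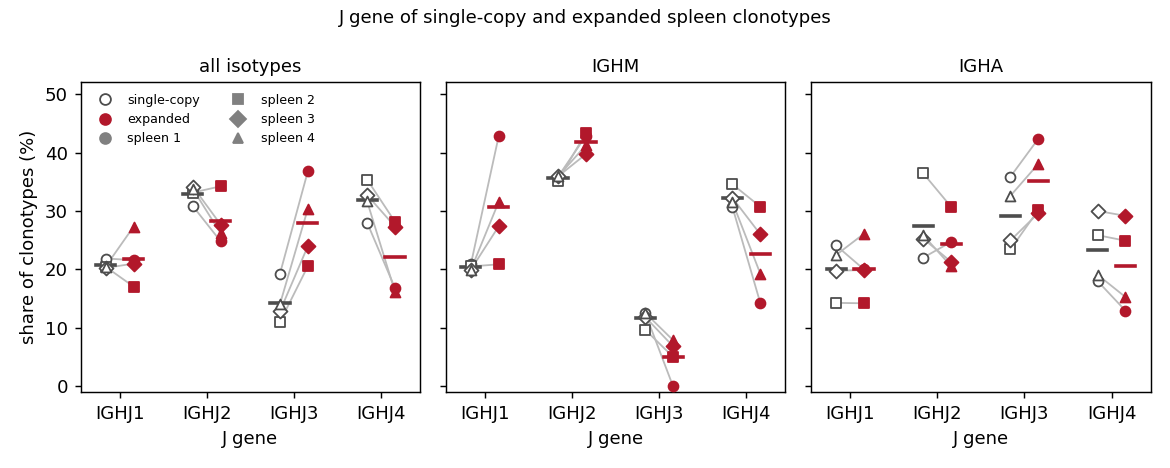
J gene shares (%) of single-copy (open) and expanded (filled) spleen clonotypes for all isotypes, within IGHM and within IGHA, with symbols as in the plot of isotypes. IGHJ3 is higher in expanded clonotypes overall and within IGHA, and lower within IGHM.

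Of 72 V genes tested on numbers of clonotypes with edgeR's quasi-likelihood test, with the spleen as a block, 3 passed an adjusted p of 0.05 (4.17%): 1 higher (1.39%) and 2 lower (2.78%) in expanded clonotypes. IGHV11-2 (chr12:114048241-114048704, mm10), the B-1a gene named above, was used by 0.800%, 0.250%, 1.67% and 0.577% of expanded against 0.155%, 0.0747%, 0.0902% and 0.0646% of single-copy clonotypes. Its log2 fold change was 2.79 (SE 0.585, edgeR adjusted p = 0.000247). IGHV11-2 had 12 expanded clonotypes, 8 mainly IGHM and 4 mainly IGHA, all with 0 V mismatches and 11 with IGHJ1. It passed the filter on low counts through the expanded class, where it is high: IGHV5-2, with larger single-copy shares (0.158% to 0.21%) and 0 expanded clonotypes, was not tested. Without a filter, over 160 genes, IGHV11-2 had a log2 fold change of 2.63 (edgeR adjusted p = 0.00794). IGHV1-62-3 (chr12:115460999-115461431) was found in 1 expanded clonotype, in spleen 4, and in 5814 single-copy clonotypes, with a log2 fold change of -4.18 (SE 1.21, edgeR adjusted p = 0.0239). That fold rests on the 1 expanded clonotype and ranged from -12.75 to -3.30 on leaving out a spleen, the first being the fit without spleen 4, where no expanded clonotype remains. IGHV1-69 (chr12:115623203-115623595) was used by 1.6%, 0.333%, 1.33% and 0.385% of expanded and 2.61%, 1.84%, 2.56% and 2.53% of single-copy clonotypes, with a log2 fold change of -1.95 (edgeR adjusted p = 0.0279). Without spleen 2, and likewise without spleen 3, no V gene passed, so these calls depend on both of those spleens. Leaving out any 1 spleen gave 0 to 2 called genes. IGHV11-2 did not pass the filter on low counts from 200 copies, at 0.05% of copies, at equal depth, against 1 copy in each table, for lineages, within IgM or IgA, or restricted to clonotypes with the same main isotype in both tables or with over 2 distinct sequences, so it was not tested there. With no filter its log2 fold change was 3.25 within IgM (edgeR adjusted p = 0.0117) and 2.78 within IgA (edgeR adjusted p = 0.110).

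Among the other B-1a genes of the list drawn up for this comparison, IGHV11-1 had 0 expanded clonotypes, and IGHV12-3 took 0.916% and 0.333% of expanded clonotypes in spleens 2 and 3 and 0% in spleens 1 and 4. Neither passed the filter on low counts, and the 3 genes together gave 24 expanded clonotypes. IGHV7-1, the gene of the T15 heavy chain, was higher in 4 of 4 spleens (0.913% ± 0.523 of expanded against 0.211% ± 0.0599 of single-copy clonotypes, SD, n = 4) with an edgeR adjusted p of 0.198. The 3 genes of the IGHV7 family had a median log2 fold change of 1.72, against -0.35 over all 72 genes, with 0 of 3 called. Over all 72 genes, 8 had an unadjusted p under 0.05 with edgeR. Like IGHV11-2, IGHV7-1 and IGHV7-4 passed the filter on low counts through the expanded class, so this family median is a description only. Of IGHV1-72, IGHV1-53 and IGHV1-64, of the 4 IGHV14 genes and of the 2 IGHV3 genes tested, 0 passed, with median log2 fold changes of -0.02, 0.23 and -1.

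Within isotypes, in fits added after the values were seen, 2 of 60 V genes (3.33%) passed among IgM clonotypes and 6 of 33 (18.2%) among IgA clonotypes. In IgM both were higher in expanded clonotypes. IGHV7-1 took 7.14%, 2.52%, 2.74% and 1.75% of expanded IgM clonotypes of spleens 1 to 4 (16 clonotypes) against a mean of 0.246% of single-copy IgM, with a log2 fold change of 3.21 (SE 0.535, edgeR adjusted p = 6.33e-07). It passed the filter on low counts through the expanded class here too. IGHV6-3 (chr12:114391712-114392010) took 0%, 10.6%, 15.1% and 7.02% (65 clonotypes) against 2.10% (log2 1.87, edgeR adjusted p = 0.0192). In IgA, IGHV6-3 was the 1 gene higher, 3.03% of those tested (1.97% ± 0.618 against 0.933% ± 0.251, SD, n = 4; edgeR adjusted p = 0.00766). There it passed the filter on low counts through the expanded class, where it is high. The 5 lower genes (15.2%) were IGHV1-62-3, with 0 of 1231 expanded IgA clonotypes against 2.04% of single-copy ones, IGHV1-69, IGHV1-82, IGHV1-80 and IGHV1-50. IGHV1-80 was lower in 3 of 4 spleens, and the other 4 genes in all 4. Without the filter on low counts, IGHV7-1 in IgM (log2 2.47, edgeR adjusted p = 0.0412) and IGHV1-62-3 in IgA (edgeR adjusted p = 0.0436) still passed, IGHV6-3 passed in neither isotype, and IGHV1-69, IGHV1-82, IGHV1-80 and IGHV1-50 no longer passed in IgA. IGHV1-18 (log2 -2.93, edgeR adjusted p = 0.0412) and IGHV11-2 passed in IgM in that fit, so that 3 of 150 genes were called in IgM and 1 of 138 in IgA. The IGHV1-18 call rests on 3 expanded IgM clonotypes, and the gene was lower in 3 of 4 spleens and higher in spleen 1 (7.14%). Its mean shares were close, at 2.06% of expanded and 2.46% of single-copy IgM clonotypes. TMM factors in that IgM fit ranged from 0.604 to 4.41.

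By V family the classes were close. IGHV1, the largest family, made up 64.5% ± 8.28 of expanded and 65.6% ± 6.01 of single-copy clonotypes (SD, n = 4). IGHV6 (4.27% against 2.57%) and IGHV7 (2.28% against 1.3%) were higher in expanded clonotypes in 4 of 4 spleens, and IGHV5 (6.14% against 7.95%) and IGHV9 (4.52% against 5.30%) lower in 4 of 4, each with exact sign-flip p = 0.125 and adjusted p = 0.312 over 10 families. IGHV14 averaged 7.28% against 5.44% but was higher in spleens 1 and 3 and lower in spleens 2 and 4. IGHV10 took 3.16% of expanded and 3.12% of single-copy clonotypes in spleen 2, and in the others at most 0.192% of expanded and at most 1.41% of single-copy clonotypes.

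The mean CDR3 was shorter among expanded clonotypes of all 4 spleens. The mean length was 11.7 ± 0.218 amino acids against 12.1 ± 0.169 (SD, n = 4), lower in 4 of 4 spleens without overlap (exact sign-flip p = 0.125). Within IgA it was 11.7 ± 0.228 against 12.2 ± 0.0847 (SD, n = 4), also without overlap, and within IgM 11.7 against 12.0, lower in 3 of 4 spleens. The direction turned when the small class was clonotypes with 1 copy in each technical table, to 0.252 amino acids longer in expanded clonotypes. Tyrosine, a frequent contact residue of antibody CDR3s, made up 19.0% ± 1.49 of CDR3 residues in expanded and 20.3% ± 0.514 in single-copy clonotypes (SD, n = 4), lower in 4 of 4 spleens. Mean hydrophobicity on the Kyte-Doolittle scale was -0.646 against -0.706, higher in 4 of 4, and the net charge was -0.374 against -0.389, higher in 2 of 4. Counted as lineages, the tyrosine difference turned to 0.685 percentage points and the hydrophobicity difference to -0.0173.

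A higher share of expanded clonotypes recurred in another spleen. A match in V gene, J gene and CDR3 peptide was present in another spleen for 11.2%, 14.8%, 13.3% and 10.8% of expanded clonotypes of spleens 1 to 4 and for 4.37%, 4.01%, 5.41% and 4.83% of single-copy clonotypes (12.5% ± 1.89 against 4.65% ± 0.604, SD, n = 4; exact sign-flip p = 0.125). Within IgM the shares were 28.6% ± 10.1 and 4.98% ± 0.575 (SD, n = 4), and within IgA 9.54% ± 3.73 and 3.19% ± 0.652 (SD, n = 4), each without overlap. Against clonotypes with 1 copy in each technical table the overall difference was 0.699 percentage points in place of 7.88. Counting only combinations that were expanded in each spleen, 1883 were expanded in 1 spleen, 16 in 2, 7 in 3 and 1 in 4. The 75 clonotypes of the 24 repeated combinations were IgM (39) or IgA (36), and 0 were IgG2, against 254 IgG2 among the 2071 others. Of the 75, 31 had 0 V mismatches, against 905 of the 2071 others. The mean CDR3 length of the repeated clonotypes was 10.3 amino acids against 11.8 in the others. These values pool the expanded clonotypes of the 4 spleens, 1201 of 2146 of them from spleen 2. A repeated combination can also count more than once in a spleen. The values are a description, and no difference between repeated and other clonotypes was tested.

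Many expanded clonotypes were relatives of each other. Joined by V gene, J gene, CDR3 length and 85% nucleotide identity of the CDR3, they fell into 98, 746, 189 and 309 lineages. The lineage with most expanded members in spleen 2 was IGHV1-75 with IGHJ2, with 38 expanded among 937 clonotypes. In spleens 3 and 4 the corresponding lineages were IGHV14-3 with IGHJ4 (ARSRNYYYAMDY) and IGHV1-61 with IGHJ3, each with 22 expanded clonotypes, and in spleen 1 IGHV1-26 with IGHJ3 (ARWAGGWFTH) with 7. All 4 lineages were led by an IgA clonotype. A lineage with an expanded clonotype had a median of 8, 25, 22 and 25 clonotypes.

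Part of the expanded clonotypes was found in the other tissues under the same number. The labels do not state that a number marks the same mouse, and these shares are a description. An identical clonotype occurred in the lymph node of the same number for 13.6%, 26.8%, 26% and 22.1% of expanded clonotypes of spleens 1 to 4, and in lymph nodes of other numbers for 0.769% to 6.99%. The 6.99% came from 1 pair, spleen 2 with lymph node 1 (84 of 1201), and the next highest was 4.8%, spleen 1 with lymph node 2. For single-copy clonotypes the shares in lymph nodes of the same and of other numbers were 0.237% to 0.94% and 0.0537% to 0.319%. In skin of the same number the shares of expanded clonotypes were 2.40%, 1.17%, 4% and 3.85%. They were 0% to 1% in skin of other numbers, against at most 0.00911% of single-copy clonotypes in any skin. Of the 49 found in skin of the same number, 42 were IgA and 5 IgM.

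The same rule was applied to the lymph node of mice under the same treatment. It held 30, 110, 32 and 88 expanded clonotypes. There the IGHA share of expanded clonotypes was 10.0%, 2.73%, 9.38% and 12.5%, and IGHG2 reached 16.7%, 45.5%, 46.9% and 29.5%. The expanded-minus-single-copy difference in IGHA was 56.4 ± 12.2 percentage points in spleen against 8.11 ± 4.1 in lymph nodes, and in IGHG2 7.58 ± 3.74 against 32.8 ± 14.3 (SD, n = 4 each). For IGHM it was -48.1 against -26.6. For V mutation the spleens gave 1.46 ± 0.543 and the lymph nodes -0.0121 ± 0.513 (SD, n = 4 each). In these 4 measures the values of the tissues did not overlap, with an exact two-sided permutation p of 0.0286 each, the smallest for 4 against 4, and an adjusted p of 0.05 over 7 measures, which is at and not under the threshold. The differences in IGHJ3 (13.6 in spleen and 5.14 in lymph node, exact permutation p = 0.114), IGHJ4 (p = 0.514) and CDR3 length (p = 0.743) had overlapping values. The alternatives included a threshold of 0.05% of copies in both tissues. Under them, the spleen effect minus the lymph node effect ranged from 32.8 to 55.2 in IGHA and from -31.3 to -17.9 in IGHG2. For V mutation it ranged from 0.850 to 1.82, for IGHM from -25.4 to -5.64 and for IGHJ3 from 0.389 to 10.8. Within IgG2, expanded clonotypes were less mutated than single-copy ones in the lymph node as well (1.1% against 2.14%, lower in 4 of 4), but there the classes overlapped. In the lymph node this was not particular to IgG2. Expanded clonotypes were also less mutated within IgM (0.190% against 0.723%, without overlap) and within IgA (1.57% against 2.49%, with overlap), each lower in 4 of 4.

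**Figure D5:**
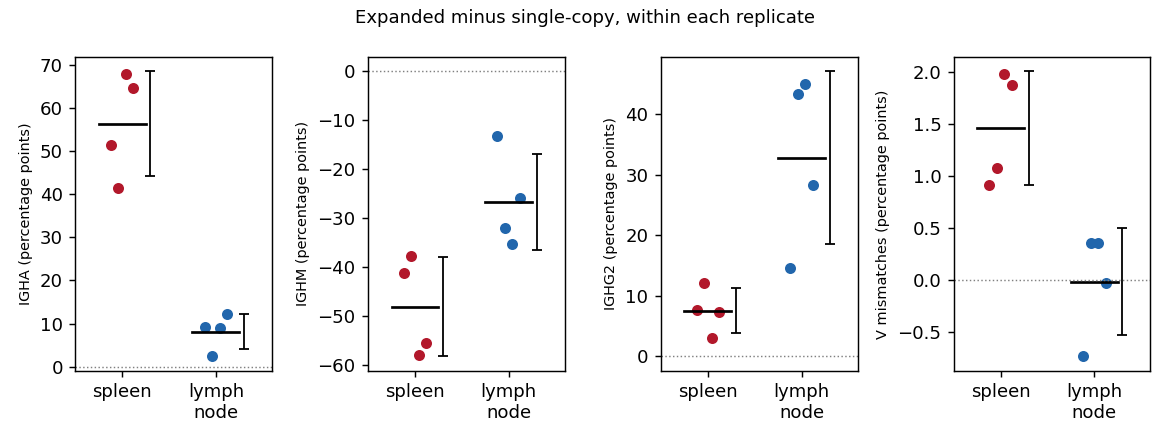
Expanded minus single-copy difference (percentage points) in IGHA, IGHM, IGHG2 and V mismatches for the 4 spleens and 4 lymph nodes, 1 point per replicate, with a line at the mean and a bar of 1 SD. The IGHA differences lie far higher in spleen (mean 56.4) than in lymph node (mean 8.11), and the IGHG2 differences lower.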

How the data were processed

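Per the labels' protocols, a commercial service sequenced heavy-chain transcripts of B cells from bulk RNA with constant-gene primers, a mix of V gene primers and molecular identifiers, from the second framework region into the constant region. The authors deposited, for each library, every distinct sequence with its gene calls, a whole-number count (called copies here) and, other than counts, its V mismatches and aligned V length. Whether a copy is an identifier or a read, and the alignment program, are not given in the sources used here; per the submitters' processing notes the build was mm10. Spleen libraries held 79235 to 683759 copies.

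The 2 technical tables of a spleen were added. The members and gene lists were chosen with earlier results of these data known. Isotype was the constant gene with most copies, and V mutation that of the most abundant sequence. Both classes come from the same libraries, so values were compared within a spleen with an exact two-sided sign-flip test (smallest p = 0.125 over 4 spleens) and Benjamini-Hochberg adjustment within a measure. V genes were tested on numbers of clonotypes with edgeR 4.0.16 (TMM, quasi-likelihood, the spleen as a block, filter on low counts), with DESeq2 1.42.0 as an alternative. The spleen effect was compared with that of the lymph node by an exact permutation test. On simulated data for the 72 V genes, with 20 changed 4-fold, 85.0% were recovered with 0 false calls. The simulation used a fixed dispersion, the same V shares in every spleen and no related clonotypes. These rates therefore need not hold for the real data. Named were all 7 isotypes, all 4 J genes, families of at least 1%, up to 10 called V genes in each direction, the listed V genes, the 3 largest clonotypes of each spleen and the 5 CDR3s expanded in most spleens. Alternatives changed the threshold (50 or 200 copies, 0.05% of copies), the depth, the small class, lineages, the spleens included, the block and the tools. Gene positions are those of RefSeq on GRCm38.p6, the assembly of mm10. Whether the 4 spleens are separate mice is not stated beyond the term biological replicate, and p-values refer to these samples only. A sign-flip p of 0.125 means that all 4 differences had the same sign, and says nothing of their spread. An exact permutation p of 0.0286 means that the values of the tissues did not overlap.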

Additional observations from a re-analysis of the deposited data

Results flagged for a closer look

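A spleen was singled out where its distance from the nearest of the other 3 took up more than the critical share of the range of the 4 values (Dixon's test at the 95% level). Of 56 sets of class values checked, 15 met this, where chance gives about 1 in 20. Most concern spleen 1, the shallowest.

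Among single-copy clonotypes, spleen 1 stood apart in IGHG1 (3.65% against at most 0.181%), IGHE (0.729% against at most 0.00467%) and IGHA (16.6% against at most 5.87%). Its single-copy V mutation was 1.76% against at most 0.859%, and 37.6% of its single-copy clonotypes had 0 V mismatches against at least 63.9%. Its single-copy IGHV5 share was 5.28% against at least 8.63%, its IGHV9 share 4.27% against at least 5.58%, and its IGHJ1 share 21.9% against at most 20.5%. Its single-copy CDR3s averaged 12.4 amino acids against at most 12.0, with 19.5% tyrosine against at least 20.5%. Among expanded clonotypes, spleen 1 had 4% IGHG1 against at most 0.0833% and 3.2% IGHE against 0% in the others.

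Spleen 2, which holds the most expanded clonotypes and the lowest threshold as a share of copies, stood apart among expanded clonotypes. Its IGHA share was 47.5% against at least 68.0%, its V mutation 1.94% against at least 2.58%, and its IGHV10 share 3.16% against at most 0.192%, with 3.12% among its single-copy clonotypes.

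The IGHJ3 difference between expanded and single-copy clonotypes was positive in every spleen within IgA and negative in every spleen within IgM; the IgA difference minus the IgM difference was 12.6 percentage points, and this was not tested.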

How the results depend on the processing

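The differences in IGHA, IGHM, IGHD, IGHG2, IGHJ2, IGHJ3, IGHJ4 and sharing between spleens kept their sign under all alternatives run, IGHA between 38.3 and 62.9 percentage points and IGHJ3 between 7.07 and 19.5. Values below are expanded minus single-copy.

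Without the replicate block, that is with the classes taken as unpaired samples, differences and the V gene count of 3 did not move, but the exact permutation test can reach a lower p: V mutation (1.46), CDR3 length (-0.364) and sharing (7.88) then had an adjusted p of 0.0286. The block is given by the design, since both classes come from the same libraries.

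The number of V genes called, 3 of 72 in the main fit, was 12 from 50 copies, 1 from 200 copies, 0 against a small class of 1 copy in each table (4 at an unadjusted p under 0.05), 7 without TMM factors, 11 with DESeq2, 5 with over 2 distinct sequences and 6 of 33 within IgA (1 of 138 there without the filter on low counts). Leaving out a spleen gave 0 to 2. The number of genes tested differed between settings, so these counts cannot be compared as shares.

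V mutation over all isotypes turned to -0.0306 with the sequence of fewest mismatches. Within IgA it turned to -0.102 from 50 copies and -0.642 for lineages. Within IgM it turned to 0.127 at 0.05% of copies, 0.430 at equal depth and 0.408 with 1 copy in each table, with a leave-one-out range of -0.292 to 0.0200. Unmutated IgM clonotypes turned to -2.25 at equal depth and -15.8 with 1 copy in each table. CDR3 length turned to 0.252 with 1 copy in each table, and within IgM to 0.0902 at 0.05% of copies, 0.0157 at equal depth and 0.438 with 1 copy in each table. Sharing within IgG2 turned to -9.77 with 1 copy in each table. For lineages, hydrophobicity turned to -0.0173 and tyrosine to 0.685.

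Small differences turned more often. IGHG3 was -0.168 from 200 copies, -0.281 at equal depth, -0.213 as shares of copies and -0.193 with the same main isotype in both tables. IGHG1 was -0.529 from 200 copies, -0.0166 at equal depth, -3.80 with 1 copy in each table, -0.0692 as shares of copies and -0.0907 with over 2 distinct sequences, with a leave-one-out range of -0.109 to 0.0512. IGHE was -0.184 from 200 copies, with a range of -0.00286 to 0.822. IGHV1 was 2.79 at 0.05% of copies and 5.36 at equal depth; IGHV2 was -0.420 from 200 copies and -0.136 at equal depth, range -0.275 to 0.385. IGHV3 was 0.654, 0.193, 0.447, 0.293, 0.651 and 1.12 from 50 copies, from 200, at 0.05%, at equal depth, with 1 copy in each table and for lineages, range -0.371 to 0.243. Net charge was -0.0267, -0.00967, -0.0297, -0.000263 and -0.0406 from 50 copies, at 0.05%, at equal depth, with 1 copy in each table and for lineages, range -0.0293 to 0.0395. IGHJ1 was -0.325 with copies as weights and -0.0417 with the same main isotype in both tables, range -0.972 to 2.43. Against lymph node, the CDR3 length effect was -0.169 from 200 copies, range -0.106 to 0.254, and the IGHJ4 effect -0.725 at 0.05% of copies. The causes were not tested.

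The main limits are the 4 spleens, whose paired test cannot reach the threshold, the copies of unknown nature, and the single-copy class, which holds near-variants of expanded clonotypes. The requirements of the same main isotype and of over 2 distinct sequences, and the splits by isotype, with or without the filter, were chosen after seeing the data.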
